A study of Mus musculus with 4 samples.

Results

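The nuclear genes of the respiratory chain were examined in 1 list of accessible chromatin regions from hair follicle stem cells. The members were the nuclear protein-coding genes of RefSeq GRCm38 whose symbols start with Nduf, Uqcr or Atp5, the Sdha to Sdhd genes, Cyc1, Cycs, and the Cox4 to Cox8 subunit genes, which gave 98 genes of 21887 nuclear protein-coding genes. ATAC-seq, which uses the Tn5 transposase to cut and tag open DNA, was applied to back skin cells of female mice at postnatal day 30. The sort took cells with CD34, CD49f and a histone H2B-GFP reporter under the Krt14 promoter, and without Sca-1. A Foxc1 knockout carried this reporter (K14-H2BGFP), K14Cre and Foxc1 fl/fl, and a control carried the same reporter and Foxc1 fl/fl without Cre. Cre under the Krt14 promoter acts in epithelial cells that use this keratin gene, so the deletion is not limited to stem cells. Each genotype was 1 library sequenced in 2 runs. A single list of 74777 peaks (mm10 coordinates, without scores, read numbers or genotypes) stands for all 4 runs, so knockout and control could not be compared, the depth behind a peak is unknown, and no test was made.

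Mitochondria make ATP by passing electrons from NADH and succinate along complexes I, II, III and IV to oxygen while protons are pumped across the inner membrane, and ATP synthase uses the proton gradient. Most subunits are encoded in the nucleus, and a small set is encoded by mitochondrial DNA. Some complex IV subunits exist as general and tissue-restricted isoforms, and most of the restricted ones are known from heart and skeletal muscle, lung or testis. Ndufa4l2, the paralogue of Ndufa4, is known as a hypoxia-induced gene and is counted with the tissue-restricted ones here. Skin stem cells that rest between hair cycles are known to rely strongly on glycolysis. The labelled cell type was set beside 10 marker genes of hair follicle stem cells. All 10 had a peak within 1 kb of a gene end, against 57.6% of all nuclear protein-coding genes. Of the 5 markers with a known transcript start, 4 had a peak over it, and Krt14 had none there. Cd34, Itga6 (the gene of CD49f) and Krt14 were also part of the sort, the first 2 as surface markers and Krt14 as reporter promoter. Of 10 markers of skeletal and heart muscle 2 had one (Ckm and Myh1), and of 10 markers of testis germ cells 1 had one (Spata18).

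Promoter sequences are shown for the 4 isoform pairs with a start for both genes, because CG dinucleotides differ within each pair, though not in the same direction in all of them. Each line gives the 250 bases before the RefSeq transcript start (GRCm38.p6), 5′ to 3′ on the strand of the gene, with every CG in capitals. Cox8a lies at chr19:7217617-7217866 (minus strand) and Cox8b at chr7:140900447-140900696 (minus strand). Cox7a2 lies at chr9:79759854-79760103 (minus strand) and Cox7a1 at chr7:30183921-30184170 (plus strand). Cox6b1 lies at chr7:30626115-30626364 (minus strand) and Cox6b2 at chr7:4753095-4753344 (minus strand). Cox7b lies at chrX:106015450-106015699 (plus strand) and Cox7b2 at chr5:71548206-71548455 (minus strand).
Cox8a: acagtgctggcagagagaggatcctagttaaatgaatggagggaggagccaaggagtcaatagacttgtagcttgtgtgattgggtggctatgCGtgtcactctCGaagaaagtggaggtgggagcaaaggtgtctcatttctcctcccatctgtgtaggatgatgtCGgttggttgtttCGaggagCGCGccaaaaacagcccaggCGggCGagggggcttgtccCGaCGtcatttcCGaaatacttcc
Cox8b: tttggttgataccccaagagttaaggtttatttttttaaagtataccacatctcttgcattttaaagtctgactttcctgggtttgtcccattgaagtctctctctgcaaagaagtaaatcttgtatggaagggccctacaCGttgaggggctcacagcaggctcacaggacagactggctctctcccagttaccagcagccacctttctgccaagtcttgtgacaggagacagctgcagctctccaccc
Cox7a2: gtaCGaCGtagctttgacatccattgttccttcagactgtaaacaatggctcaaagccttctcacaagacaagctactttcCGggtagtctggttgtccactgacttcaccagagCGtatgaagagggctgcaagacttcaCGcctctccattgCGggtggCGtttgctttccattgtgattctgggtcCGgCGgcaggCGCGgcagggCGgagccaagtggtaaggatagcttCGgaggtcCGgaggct
Cox7a1: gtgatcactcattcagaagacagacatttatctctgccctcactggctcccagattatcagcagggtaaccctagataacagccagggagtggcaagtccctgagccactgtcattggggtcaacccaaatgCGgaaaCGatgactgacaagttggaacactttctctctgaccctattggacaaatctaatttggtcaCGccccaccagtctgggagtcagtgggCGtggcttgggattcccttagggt
Cox6b1: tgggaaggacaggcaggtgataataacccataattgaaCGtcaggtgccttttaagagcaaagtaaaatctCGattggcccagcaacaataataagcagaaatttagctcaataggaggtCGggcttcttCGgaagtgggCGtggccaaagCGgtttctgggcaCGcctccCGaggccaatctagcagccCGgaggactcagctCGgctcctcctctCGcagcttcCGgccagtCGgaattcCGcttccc
Cox6b2: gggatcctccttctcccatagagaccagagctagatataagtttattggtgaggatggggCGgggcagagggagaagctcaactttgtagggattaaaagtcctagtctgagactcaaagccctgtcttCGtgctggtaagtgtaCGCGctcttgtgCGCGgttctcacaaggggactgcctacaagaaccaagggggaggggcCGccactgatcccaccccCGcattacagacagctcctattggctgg
Cox7b: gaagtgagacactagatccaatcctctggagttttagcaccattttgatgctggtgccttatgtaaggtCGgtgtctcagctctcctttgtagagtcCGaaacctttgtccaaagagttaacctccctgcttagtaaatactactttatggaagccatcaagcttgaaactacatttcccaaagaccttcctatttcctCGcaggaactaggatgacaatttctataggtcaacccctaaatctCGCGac
Cox7b2: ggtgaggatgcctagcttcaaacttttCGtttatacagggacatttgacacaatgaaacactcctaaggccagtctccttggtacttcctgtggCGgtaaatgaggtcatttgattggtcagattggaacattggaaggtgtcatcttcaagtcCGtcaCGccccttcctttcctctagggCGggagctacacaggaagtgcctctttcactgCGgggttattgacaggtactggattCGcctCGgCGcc
The general genes Cox8a, Cox7a2 and Cox6b1 held 11, 14 and 14 CG dinucleotides in these stretches, and the tissue-restricted genes Cox8b, Cox7a1 and Cox6b2 held 1, 4 and 8. The pair of Cox7b and Cox7b2 ran the other way, with 5 in the general gene Cox7b and 9 in the testis form Cox7b2.

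Most respiratory chain genes had open chromatin at a gene end. A peak lay within 1 kb of either annotated end of 87 of 98 genes (88.8%, exact 95% interval 80.8 to 94.3), compared with 57.6% of all nuclear protein-coding genes. Intervals here cover counting error only, and genes are not replicates. ATP synthase, which turns the proton gradient into ATP, had an end peak at all 17 of its genes, and complex III, which moves electrons from ubiquinol to cytochrome c, at all 9. Complex II, the succinate dehydrogenase of the citric acid cycle, had one at all 4 genes, and so did Cycs, the gene of somatic cytochrome c. Complex I, the NADH dehydrogenase, had one at 36 of 39 subunit genes, and the complex I assembly factors named Ndufaf had one at 7 of 8. Complex IV, cytochrome c oxidase, had the lowest share of the 7 groups, with 13 of 20 genes. The 20 include Ndufa4, which encodes a subunit of this complex despite its name, and its paralogue Ndufa4l2. They also include all 8 tissue-restricted isoforms, of which 3 had an end peak. Among the other complex IV genes only Cox5a and Cox7a2 had no end peak, and both had a peak over a start.

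**Figure D1:**
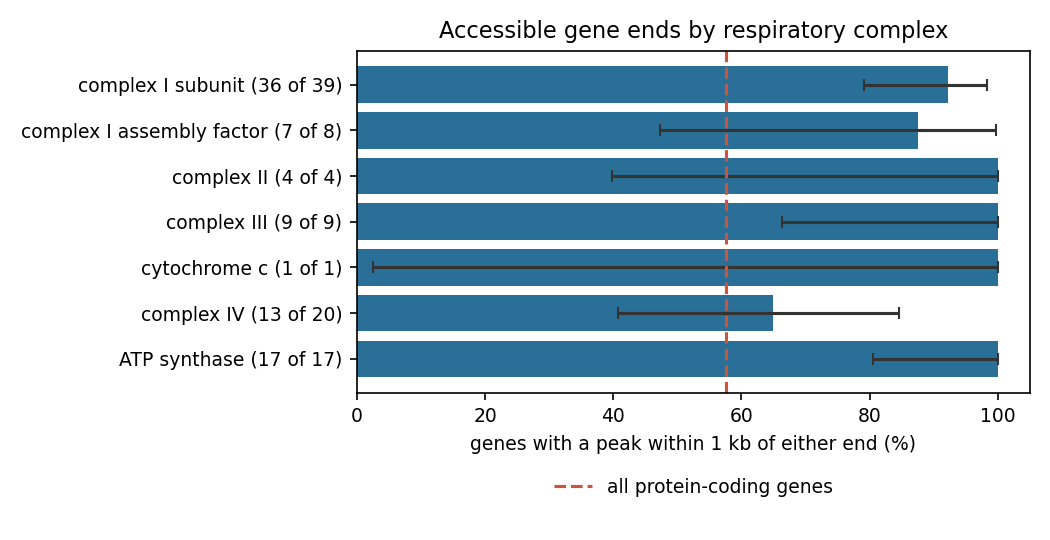
Share of the genes of each respiratory complex with a peak within 1 kb of either end (bars, percent), with exact 95% intervals of the share (lines); the dashed line is the share of all protein-coding genes, 57.6%. All 17 ATP synthase genes and all 9 complex III genes had an end peak, and 13 of 20 complex IV genes did. The complex IV genes include all 8 tissue-restricted isoforms.

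The accessible end was the one where transcription starts. A transcript start was available for 79 of the 98 members, and 73 of these had an end peak. In all 73 a peak lay at the start end, in 9 of them a peak also lay at the other end, and in 0 was the peak at the other end only. A peak lay at the start end of 92.4% of the members with a start and at the other end of 11.4%, against 55.2% and 11% of all 17492 protein-coding genes with a start. A peak overlapped the 300 bases around a start (250 before to 50 after) at 75 of 79 members (94.9%, exact 95% interval 87.5 to 98.6), against 55% of all genes with a start. In all 75 the start itself lay inside the peak.

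Core subunits that carry electrons or catalysis are described next. In complex I, the NADH-binding subunit gene Ndufv1 had an end peak of 781 bp, and the iron-sulfur subunit genes Ndufs1, Ndufs7 and Ndufs8 had peaks of 1720, 877 and 964 bp. The core subunit gene Ndufs3 had one of 945 bp. In complex II, the flavoprotein gene Sdha, the iron-sulfur gene Sdhb and the membrane anchor genes Sdhc and Sdhd had peaks of 1272, 1502, 1345 and 1100 bp. In complex III, the Rieske iron-sulfur gene Uqcrfs1 had a peak of 1356 bp, while that of Cyc1, the cytochrome c1 gene, was 545 bp and the narrowest widest end peak of any member. The electron carrier gene Cycs had a peak of 1425 bp. The catalytic ATP synthase genes Atp5a1 (alpha) and Atp5b (beta) had widest end peaks of 937 and 1297 bp. The peak of Atp5b over its own start was 1189 bp, and the wider one at the other end was shared with the end of Baz2a. Atp5g1, Atp5g2 and Atp5g3, which encode the same mature c subunit of the proton-driven rotor, each had an end peak, of 974, 674 and 710 bp.

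The median width of the end peaks lay somewhat below that of other genes. The widest end peak of the 87 genes had a median of 1249 bp (quartiles 951.5 and 1531 bp, range 545 to 2834 bp), and that of all 12600 genes with an end peak had a median of 1328 bp (quartiles 912 and 1817 bp). Of the 87 genes, 37 lay above the median of all genes. Around the start, the peaks of 75 members reached a median of 637 bp upstream and 615 bp downstream, against 615 bp and 687 bp for 9629 genes. The peak reached farther downstream than upstream at 32 of 75 members, against 56.2% of all genes with a peak over a start.

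**Figure D2:**
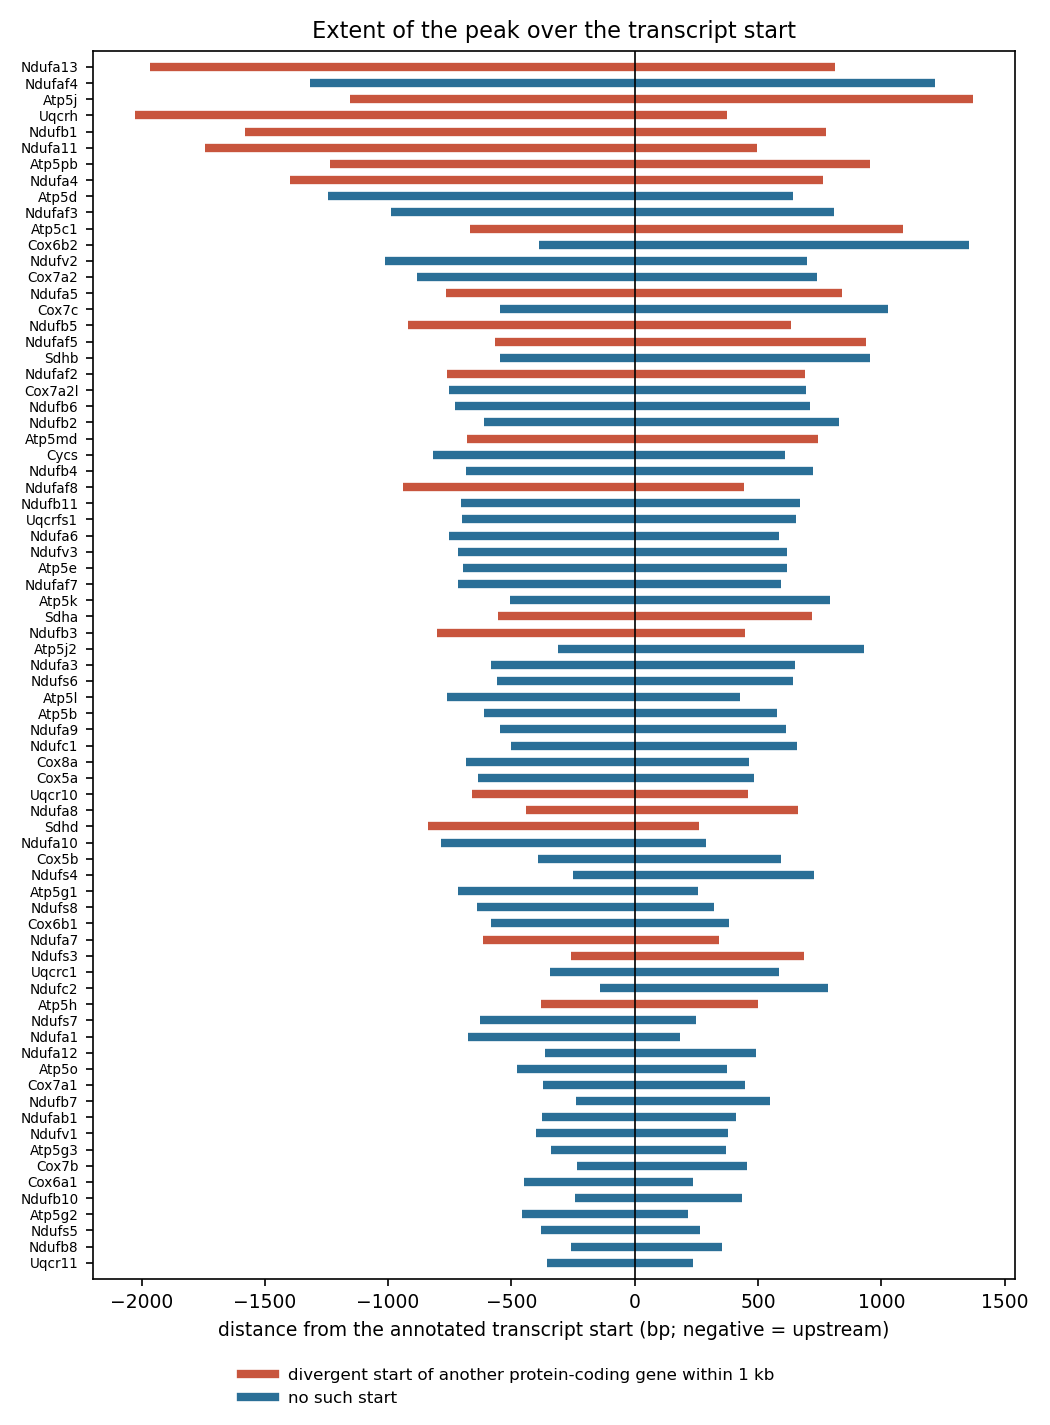
Each line is the peak over the annotated transcript start of 1 of 75 respiratory chain genes, drawn from its upstream to its downstream limit in bp from the start, sorted by width. Red lines mark genes with a divergent start of another protein-coding gene within 1 kb; all peaks cover the start, and most of the widest ones are red.

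The widest end peaks were shared with neighbours. Of the 10 members with the widest end peak, 9 had it within 1 kb of the end of another annotated gene, the exception being the complex III core gene Uqcrc2 with 1946 bp. The widest, 2834 bp at the complex I subunit gene Ndufb6, lay at the end away from its start and within 1 kb of ends of Topors and Smim27. The peak over the start of Ndufb6 was 1443 bp. Ndufa13, a complex I subunit gene, shared 2777 bp with Tssk6, and the assembly factor gene Ndufaf4 shared 2535 bp with the non-coding gene Gm46848. Uqcrh, the hinge protein gene of complex III, shared 2403 bp with Lrrc41. Ndufb1 shared 2357 bp with Cpsf2, Ndufa11 2240 bp with Vmac, Atp5pb 2192 bp with Wdr77, and Ndufa4 2163 bp with Phf14. Atp5j, a peripheral stalk gene of ATP synthase, shared 2528 bp with Gabpa, which encodes the DNA-binding subunit of GA-binding protein, a known activator of respiratory chain genes. In all, 51 of 87 end peaks (58.6%) were shared with another annotated gene, against 40.1% over all genes with an end peak. The shared peaks of members had a median width of 1345 bp and the 36 unshared ones 976.5 bp. Over all genes these medians were 1434 and 1240 bp, so members had the lower median in both classes, with the larger gap among unshared peaks.

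Many members start back to back with another gene. A start of another protein-coding gene on the opposite strand, pointing away, lay within 1 kb of the start of 22 of 79 members (27.8%), against 8.48% of all genes with a start, and the median distance was 141.5 bp. These counts need both genes in the promoter table. All 22 members had a peak over the start, with a median width of 1481.5 bp (range 882 to 2777 bp), as did 53 of the 57 other members, with a median of 1160 bp. Over all genes 94.8% of those with such a neighbour and 51.4% of the others had a peak over the start, with medians of 1529 and 1334 bp, so the share in members with such a neighbour was near that of all genes of this kind. Partners that also work in mitochondria included Timm8b, a chaperone gene of the inner membrane import machinery, whose start lay 52 bp from that of Sdhd, and Mrpl47, a mitochondrial ribosomal protein gene, 308 bp from Ndufb5. Gabpa lay 148 bp from Atp5j, and Rps28, a cytosolic ribosomal protein gene, 10 bp from Ndufa7. Because a shared peak cannot be given to either gene, the part of the neighbour in these counts was not tested. Among genes with no other annotated gene end within 2 kb, 24 of 32 members (75%) had an end peak, against 45.8% of all such genes.

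Among isoforms, 6 of 7 general genes (85.7%) and 3 of 8 tissue-restricted genes (37.5%) had an end peak, beside 57.6% of all protein-coding genes. The difference of 48.2 percentage points has a Newcombe 95% interval of -0.676 to 74.8, which includes 0. The interval treats the genes as separate draws, though they are related genes chosen by name and are not replicates. It is given as a description, and the difference was not tested. Of the general genes, Cox4i1, of the regulatory subunit IV, had a peak of 1288 bp at its lower-coordinate end, shared with Emc8, and a second of 350 bp. Cox6a1 had 688 bp, Cox6b1 963 bp, Cox7b 689 bp, Cox8a 1150 bp and Ndufa4 2163 bp. Cox7a2 had no peak within 1 kb of its outer bounds, but a peak of 1622 bp covered its transcript start, which lies inside those bounds. A peak at an end or at a start was thus found at all 7 general genes and at 3 of 8 tissue-restricted genes. Over all protein-coding genes it was 13168 of 21887. Starts were known for 6 of the general genes and only 4 of the tissue-restricted ones, so this count does not treat both groups alike.

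Of the tissue-restricted genes, 5 had no end peak. Cox6a2, the heart and skeletal muscle form of subunit VIa, had its nearest peak 30806 bp from an end, Cox8c, the testis form of subunit VIII, 20083 bp, and Cox7b2, also a testis form, 14166 bp. Cox8b, the heart and muscle form of subunit VIII, had its nearest peak 1800 bp from an end, and Cox4i2, the lung form of subunit IV, 1360 bp. With 2500 bp around gene ends Cox4i2 and Cox8b were counted too, so that 6 of 7 general and 5 of 8 tissue-restricted genes had an end peak (85.7% and 62.5%), a difference of 23.2 points, beside 63.5% of all protein-coding genes with this window. The 3 with an end peak were Cox7a1, Cox6b2 and Ndufa4l2. Cox7a1, the heart and muscle form of subunit VIIa, had an unshared peak of 822 bp that covered its start, and no other annotated gene end lay within 1 kb of that peak. Cox6b2, the testis form of subunit VIb, lay whole inside a peak of 1746 bp that was also within 1 kb of an end of Fam71e2. That peak stretched 1355 bp downstream of the start and 390 bp upstream. Ndufa4l2 had a peak of 1659 bp at its lower-coordinate end, shared with Stac3, and 1 distal peak inside the gene. Cyct, the testis form of cytochrome c and not a member by the rule, had no end peak.

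**Figure D3:**
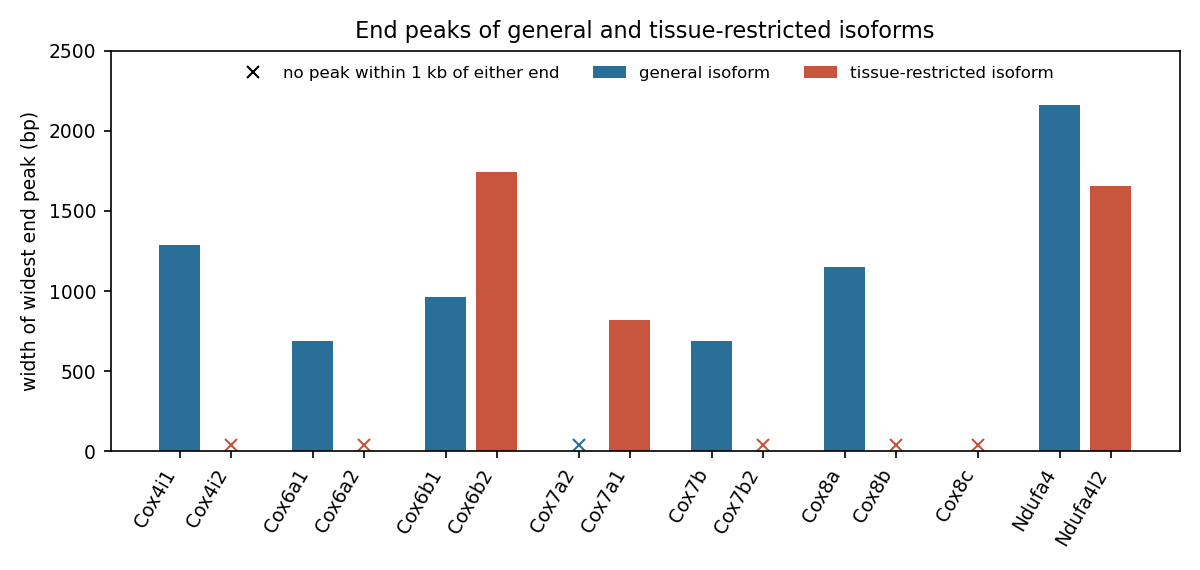
Width in bp of the widest peak within 1 kb of either end for each general isoform (blue) and its tissue-restricted partners (red); crosses mark genes with no such peak. The general genes have a bar except Cox7a2, whose peak lies over an inner start, and 5 of the 8 tissue-restricted genes have a cross.

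Members without an end peak were few and of different kinds. Besides the 5 tissue-restricted isoforms and Cox7a2 they included Cox5a, Ndufaf1, Ndufb4b and Ndufb4c. Cox5a, a general complex IV subunit gene, had a peak of 1122 bp over its transcript start, and this peak began 3267 bp inside the lower bound of the gene. Ndufb4b and Ndufb4c are annotated as genes of 471 and 485 bp, and their nearest peaks lay 7579 and 26107 bp away, while Ndufb4 itself had an end peak of 1407 bp. Of the 79 members with a start, 4 had no peak over it, namely Ndufb4b, Cox7b2, Cox8b and Ndufaf1.

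Ndufaf1, which encodes a complex I assembly factor known as CIA30, was the only one of these 4 with a CG-rich promoter. Its nearest peak lay 36526 bp from an end. It lies on chromosome 2 from 119655446 to 119662839 in a stretch of 118 kb without peaks, between positions 119618920 and 119736849. The median gap between neighbouring peaks was 11.9 kb, and 93.7% of gaps were shorter than this one. The stretch held 3 whole protein-coding genes, Ndufaf1, H3f3c and Rtf1, none with a peak. The ratio of observed to expected CG was 0.940 in the promoter of Ndufaf1 and 1.03 in that of Rtf1, a transcription elongation factor gene. The neighbours Nusap1 and Itpka on either side of them had end peaks of 885 and 1273 bp.

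Promoters of respiratory chain genes were richer in CG than promoters in general, as is known for genes used in most cells. The ratio of observed to expected CG in the 300-base promoter had a median of 0.833 for 79 members and 0.577 for 17492 genes. A ratio of 0.6 or more, the limit taken here for CG-rich, was found at 65 of 79 members (82.3%) and at 48.4% of all genes. Where the ratio reached 0.6, 64 of 65 members had a peak over a start, against 85.6% of all such genes. Below it, 11 of 14 members had one, against 26.4% of all such genes. These 14 were Atp5j2, Cox6b2, Cox7a1, Cox7b, Cox7b2, Cox8b, Ndufa3, Ndufb11, Ndufb2, Ndufb4b, Ndufb7, Ndufc2, Ndufs8 and Sdhb. Of the 6 general genes with a start 1 was among them (Cox7b), and so were all 4 tissue-restricted genes with a start. The ratio was 0.842 for Cox8a and 0.115 for Cox8b, 0.833 for Cox7a2 and 0.333 for Cox7a1, and 0.807 for Cox6b1 and 0.432 for Cox6b2. For the pair in the other direction it was 0.368 for Cox7b and 0.564 for Cox7b2.

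Letters of motifs for factors known to act on respiratory chain genes were counted in the 300-base promoters, on both strands, and in 1 promoter a gene. A stretch that matches the MEF2 letters can contain TATAAA, and the ends of other motifs can share bases. The NRF1 letters, GCGCA and GCGC with any 1 base between them, of nuclear respiratory factor 1, occurred in 18 of 79 members (22.8%) and in 6.66% of all promoters. The ETS letters CCGGAAG, the core bound by GA-binding protein and related factors, also occurred in 18 (22.8%), against 11.9%. The YY1 letters AAGATGGCG occurred in 7 members (8.86% against 1.92%), the ERR letters TNAAGGTCA of oestrogen-related receptors in 3 (3.8% against 1.03%), and the CRE letters TGACGTCA in 5 (6.33% against 2.33%). SP letters, GGGCGG, occurred in 36 members (45.6% against 46.3%), TATAAA in 8 (10.1% against 13.3%), and MEF2 letters, CTA and TAG with any 4 bases between them, in 2 (2.53% against 3.47%). Among CG-rich promoters alone NRF1 letters stood in 27.7% of members against 12.9%, ETS letters in 23.1% against 19.9%, and SP letters in 49.2% against 74.1%. YY1 letters stood in 9.23% against 3.64% there, CRE letters in 6.15% against 3.87%, and ERR letters in 4.62% against 0.496%. TATAAA, in 6.15% against 5.85%, and MEF2 letters, in 3.08% against 2.39%, were in a lower share of members than of all genes without this restriction and in a slightly higher one with it. The ERR and MEF2 shares rest on 3 and 2 members. A match of letters is a description of the sequence, and no binding was measured.

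**Figure D4:**
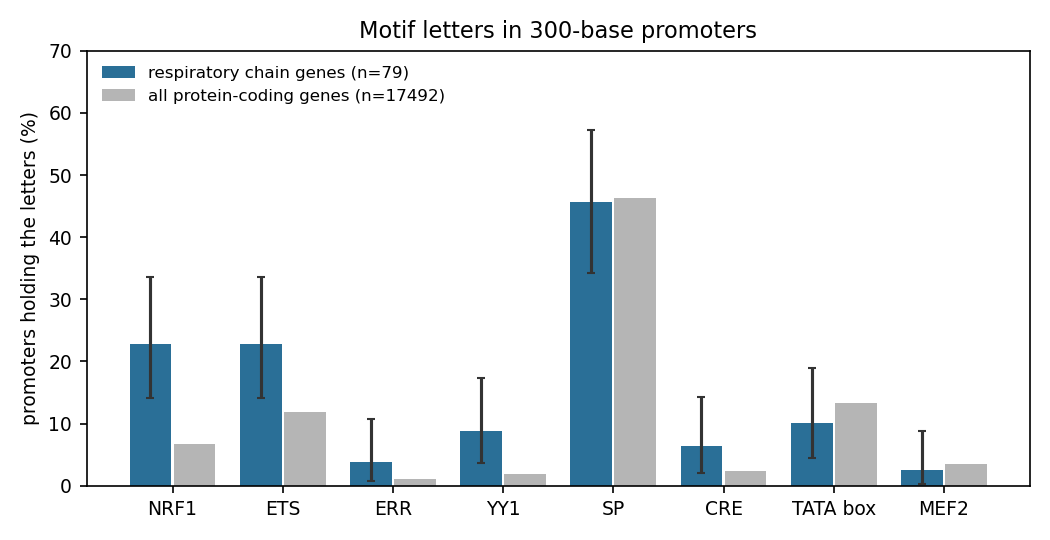
Share of 300-base promoters that hold the letters of each motif on either strand (percent), for 79 respiratory chain genes (blue, with exact 95% intervals) and 17492 protein-coding genes (grey). NRF1 letters stand in 22.8% of the members and 6.66% of all promoters, and SP letters in 45.6% and 46.3%.

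Members with both NRF1 and ETS letters were 4, Atp5h, Atp5k, Cox6a1 and Sdhd (1.29% of all promoters held both), and 32 held one or the other (17.3% of all promoters did). Cox6a1 and Sdhd are printed to show these letters in open promoters, and Ndufaf1 to show a CG-rich promoter with ETS and SP letters and no peak. Each line gives the 250 bases before the RefSeq start (GRCm38.p6), 5′ to 3′ on the strand of the gene. Capitals mark NRF1 and ETS letters in Cox6a1 and Sdhd, and ETS and SP letters in Ndufaf1. Cox6a1 lies at chr5:115348959-115349208 (minus strand), Sdhd at chr9:50603850-50604099 (minus strand) and Ndufaf1 at chr2:119662835-119663084 (minus strand).
Cox6a1: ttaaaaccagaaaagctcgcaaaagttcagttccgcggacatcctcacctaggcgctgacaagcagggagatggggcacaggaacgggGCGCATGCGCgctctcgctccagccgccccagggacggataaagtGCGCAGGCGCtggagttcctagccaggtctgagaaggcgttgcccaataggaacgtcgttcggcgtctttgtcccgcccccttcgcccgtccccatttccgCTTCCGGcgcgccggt
Sdhd: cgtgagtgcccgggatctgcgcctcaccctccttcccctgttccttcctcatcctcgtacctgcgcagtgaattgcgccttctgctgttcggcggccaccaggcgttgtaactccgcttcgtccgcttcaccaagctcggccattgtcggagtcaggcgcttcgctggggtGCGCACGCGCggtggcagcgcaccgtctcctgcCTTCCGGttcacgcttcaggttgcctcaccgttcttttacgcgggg
Ndufaf1: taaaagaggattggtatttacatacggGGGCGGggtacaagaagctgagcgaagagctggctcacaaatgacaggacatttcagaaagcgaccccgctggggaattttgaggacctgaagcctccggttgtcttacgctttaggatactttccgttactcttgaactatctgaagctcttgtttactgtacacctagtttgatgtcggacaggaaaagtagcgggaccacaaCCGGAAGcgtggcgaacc
The Cox6a1 stretch held the NRF1 letters at 2 places and the ETS letters at 1, and lay under a peak that reached 449 bp upstream of the start. The Sdhd stretch held each at 1 place, under a peak that reached 837 bp upstream. Timm8b starts 52 bp from Sdhd on the opposite strand, so most of the Sdhd stretch, with its NRF1 letters, lies beyond the Timm8b start. The peak was shared with Timm8b and Nkapd1, so neither the letters nor the peak can be given to Sdhd alone.

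A smaller share of members than of all genes had a distal peak. A peak was called distal when its midpoint was more than 1 kb away from all annotated gene ends, and it was given to the closest protein-coding gene if an end of that gene lay at most 50 kb away. At least 1 was found at 40 of 98 members (40.8%, exact 95% interval 31 to 51.2), against 53.7% of all genes, and the median was 0 against 1 (0 against 0 with a limit of 20 kb). Respiratory chain genes have little ground of their own. The territory of a gene is the part of the 50 kb around its ends for which no other protein-coding gene is closer, less the 1 kb windows of all gene ends. It had a median of 14.7 kb for members and 40.6 kb for all genes. This is not particular to the members. Mitochondrial ribosomal protein genes had a median of 13.2 kb and a distal peak at 31 of 78. Cytosolic ribosomal protein genes had a median of 12.2 kb and a distal peak at 39 of 100. Per 100 kb of territory, members had 2.90 distal peaks and all genes 3.08. Among genes with a territory of 25 to 50 kb, 10 of 15 members (66.7%) had a distal peak, against 52.7% of all genes, and with 50 kb or more 14 of 16 (87.5%) against 76.6%. With 10 to 25 kb it was 11 of 28 (39.3%) against 34.2%, and under 10 kb 5 of 39 (12.8%) against 14.6%.

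**Figure D5:**
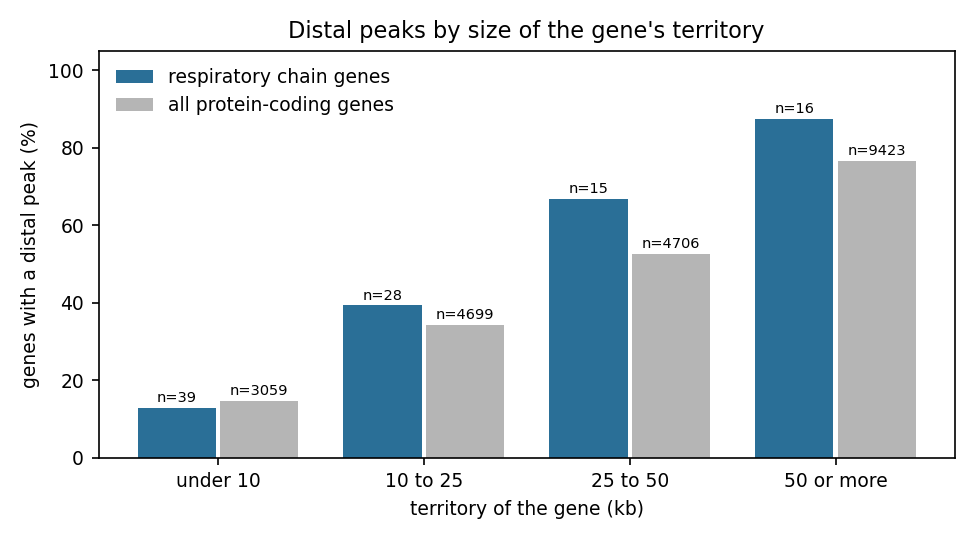
Share of genes with at least 1 distal peak (percent) by territory size, for respiratory chain genes (blue) and all protein-coding genes (grey), with the number of genes above each bar. Both rise with territory, to 87.5% of members and 76.6% of all genes at 50 kb or more.

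The 74 distal peaks of the members were spread over 24 genes with 1 and 16 genes with 2 or more. Distal was defined by gene ends, so a peak over a start inside the gene bounds could be counted. The only distal peaks of Cox5a (1122 bp) and Atp5g3 (710 bp) were their peaks over the start. Ndufaf6, a complex I assembly factor gene with a territory of 80.0 kb, had 9, the widest of them 2795 bp at chr4:11088386-11091180, whose midpoint was 13546 bp beyond the upper-coordinate end. One of the 9, of 818 bp, was also counted at the lower-coordinate end. Ndufa4 had 5, including one of 1944 bp, and one of 1056 bp that was also counted at its end. Ndufb4 had 5, of 617 to 1002 bp and all between 21808.5 and 36485.5 bp from an end. Cox7a2l, which encodes a factor that joins complexes III and IV, had 4, and Cycs, Ndufb6 and Cox4i2 had 3 each. Cox4i2, the lung form, thus had distal peaks without an end peak, of 457, 514 and 353 bp. A further 9 members had 2, namely Cox8b, Ndufaf2, Ndufaf4, Ndufb4b, Ndufs1, Ndufs4, Ndufs6, Ndufv2 and Sdhb. One of those of Ndufv2, of 1824 bp, and the one of Atp5g3 were also counted at a gene end.

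A peak lay at each end of 10 members (10.2%, against 8.14% of all genes). In 4 of these, Atp5k, Cox6b2, Cox7c and the assembly factor gene Ndufaf8, a single peak touched both end windows, and these genes are short. The other 6 were Atp5b, Ndufaf6, Ndufb6, Ndufv2, Uqcr10 and Uqcrc1. Uqcrc1, a core gene of complex III, had 933 bp at its start and 1718 bp at the other end, and Uqcr10 had 1121 bp at its start and 621 bp at the other end.

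Most genes that build or regulate the chain had an accessible end too. Of 39 assembly factors of complexes I to IV and ATP synthase outside the rule, 37 had an end peak (94.9%), beside 57.6% of all protein-coding genes. The exceptions were Coa3, of complex IV assembly, and Atpaf2, of ATP synthase assembly, and Atpaf2 had a peak over its start. Of 15 regulators 13 had an end peak, among them Nrf1 with 1510 bp, Gabpa with 2528 bp, the receptor gene Esrra with 1375 bp and the mitochondrial transcription factor gene Tfam with 1564 bp. The coactivator genes Ppargc1a and Ppargc1b had end peaks of 2436 and 2614 bp and 8 and 3 distal peaks. Esrrg and Gabpb1 had no end peak but a peak over a start. All 12 citric acid cycle genes had an end peak. Set beside the 88.8% of respiratory chain genes with an end peak, of median width 1249 bp, were 70 of 78 mitochondrial ribosomal protein genes (89.7%, 1142 bp) and 84 of 100 cytosolic ribosomal protein genes (84.0%, 1362 bp). None of these lists was tested against another.

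Of the members on the X chromosome, Ndufa1 and Ndufb11, both of complex I, had end peaks of 863 and 1378 bp, and Cox7b of complex IV had one of 689 bp. The subunits encoded by mitochondrial DNA could not be described, because 1 peak covered the whole mitochondrial chromosome of 16299 bp.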

How the data were processed

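The authors deposited 1 list of ATAC-seq regions for 4 runs, as chromosome, start and end with no score, so there is no other unit than positions in base pairs. Reads were handled with Bowtie2, MACS2 and bedtools on mm10, per the submitters' processing notes. Versions, settings and read filters were not given in the sources used here, nor was pooling of reads. Depth is unknown, so a missing peak may be a peak below detection. The list has 0 unused columns of values by sample.

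Starts were converted to 1-based positions. Gene bounds came from a RefSeq table (GRCm38.p6, coordinates of mm10, 49943 nuclear genes on chromosomes) and strands, starts and promoters from a RefSeq promoter table, which held 79 of the 98 members and 17492 of 21887 protein-coding genes. For genes with several starts, any start counted for peaks and the outermost one for sequence. An end peak shared at least 1 base with the 1000 bp around either bound. Counting of end and distal peaks was tested on simulated peaks at known places, at long genes far from other gene ends. Crowded gene ends, as many members have, and peaks over starts were not covered by it. Python 3.11.15, pandas 2.3.3, numpy 2.4.6, scipy 1.17.1 (Clopper-Pearson intervals) and matplotlib 3.10.9 were used. Members, gene lists and motifs were chosen with earlier results of these data known. Genes are named by rule: all isoforms, members with no end peak, with peaks at both ends, with the 10 widest end peaks or the most distal peaks, and core subunits; X-linked genes, divergent partners and list genes were named after their values were seen. A member that this rule would name is not reported here, but the counts include it. Other windows, peak widths and distances were also tried.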

Additional observations from a re-analysis of the deposited data

How the results depend on the processing

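The share of respiratory chain genes with an end peak was 88.8%, and 75% among the 32 genes with no other gene end within 2000 bp (45.8% of all such genes). It lay between 87.8% and 91.8% with 500 or 2500 bp windows, peak midpoints, peaks of at least the median width of 587 bp, no Ndufaf genes, and 2 alternatives chosen after seeing the data (a peak anywhere in the gene, and no Ndufb4b and Ndufb4c). The share of all genes was 57.6% in the main setting and moved more than that of members. It was 51.6% with peaks of at least median width, 63.5% with 2500 bp, and 68.7% with a peak anywhere in the gene (91.8% of members). The share with a distal peak was 40.8%, and 23.5% with peaks of at least median width (34.7% of all genes). With limits of 20 and 100 kb it was 36.7% and 41.8%, against 47.7% and 55.2% of all genes. The median of distal peaks in members was 0 at both limits, against 0 in all genes at 20 kb and 1 at 100 kb, so the medians do not differ at 20 kb. The share with a peak over a start was 94.9% within 500 bp too, against 56.8% of all genes with a start. No paired analysis was possible because the list carries no run or genotype. Depth is unknown.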
